A study of Homo sapiens with 9 samples.

Results

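The comparison described here sets a sorted subpopulation of HaCaT cells, which the labels name BD, against HaCaT cells labelled control. HaCaT is an established, spontaneously immortalized line of human keratinocytes, the cells that build the epidermis. Of the 9 libraries of the study 6 enter it, chosen by their titles: 3 of BD and 3 of control. The other 3 libraries, a second sorted subpopulation named NBD, lend their spread to the fit and are given as values in places. The labels spell out neither abbreviation, describe the BD samples as a subpopulation and the control samples as the cell line, and do not say whether control cells passed through a sorter. All groups were grown in high-glucose medium with low-calcium serum, and no other treatment, time or genotype is given. The line goes back to 1 immortalized culture, the cells within BD may be of several kinds, and no label says whether the replicates were grown as separate cultures. The p-values below therefore reflect only how much these samples vary, part of which can be technical.

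Basal keratinocytes sit on the basement membrane, divide, and carry keratins 5 and 14, the transcription factor p63 and the integrins that anchor them. Cells that leave this layer stop dividing and switch to keratins 1 and 10 and then to the proteins of the cornified layer. Keratinocytes also sense microbes and injury through Toll-like receptors, interferons, cytokines and antimicrobial proteins, and cultured cells vary in these programmes with their state. The stated interest of the study is in keratinocyte states linked to progenitors.

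Total counts were 25754757 to 28948743 per BD library, against 18054999, 17128797 and 25782938 in control replicates 1, 2 and 3. The control libraries stood apart from each other. Between controls 1 and 2, 128 of the 16921 genes tested differed by 2-fold or more in normalised CPM with 0.5 CPM added. Normalised CPM are counts divided by the TMM-scaled library total and given on the CPM scale. Between control 3 and each of controls 1 and 2, 3235 and 3030 genes differed by that much. Control 3 differed by that much from BD replicates 1, 2 and 3 in 498, 292 and 204 genes, and controls 1 and 2 differed from single BD libraries in 2709 to 3534. The first principal component of all 9 libraries, with 58.2% of the variance, placed controls 1 and 2 near 110 and the other 7 libraries between -46.4 and 3.15. All 8 keratinocyte markers examined exceeded 1 CPM, with a summed level of 3566 to 4166 CPM in BD and 3390 to 4416 CPM in control. Of the markers of other cell types, 2 of 7 for fibroblasts, 1 of 6 for leukocytes, 1 of 6 for melanocytes, 2 of 5 for endothelial cells and 1 of 5 for Merkel and neural cells exceeded 1 CPM in at least 1 library. The fibroblast markers summed to 4.10 to 5.24 CPM in BD and to 0.766, 1.29 and 5.24 CPM in controls 1, 2 and 3. The leukocyte markers summed to 4.72 to 7.13 CPM in BD and to 1.12, 0.673 and 6.74 CPM in the controls. The endothelial markers summed to 11.9 to 19.0 CPM in BD and 2.61, 1.85 and 16.8 CPM in the controls, the melanocyte markers to 0.834 to 1.53 and 0.204, 0.841 and 0.866 CPM, and the Merkel and neural markers, with ELAVL4 and STMN2 at 0, to 1.81 to 6.24 and 0.715, 0.561 and 2.03 CPM. Mitochondrial rRNA took 22.3%, 17.3% and 21.1% of counts in the BD libraries and 12.3%, 11.9% and 20.7% in the controls (exact permutation test of the means, two-sided, p = 0.2). Total count, mitochondrial rRNA share and the fibroblast, leukocyte and endothelial sums thus move with the split among controls, and their part in the results was not tested. In BD each of these 3 sums came mostly from 1 gene. COL1A1 held 2.78, 3.10 and 3.76 CPM, CD14 4.65, 5.38 and 6.86 CPM and CDH5 14.6, 11.8 and 18.8 CPM. The endothelial marker VWF had the opposite order, at 0.417, 0.118 and 0.0689 CPM in BD and 1.53, 1.07 and 0.0753 CPM in the controls. Every result below is therefore given with each control library shown singly.

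With all libraries and the filter on low counts, no gene passed the test. The quasi-likelihood test of edgeR, adjusted by Benjamini-Hochberg, called 0 of 16921 genes (0.0%) at an adjusted p under 0.05, and 801 genes (4.73%) were higher and 1533 (9.06%) lower in BD at an unadjusted p under 0.05. Without that filter the same test called 1162 of 39344 genes (2.95%), 430 higher (1.09%) and 732 lower (1.86%). On the filtered counts, DESeq2 called 11 genes higher (0.065%) and 156 lower (0.922%), and limma-voom called 1 lower (0.00591%). Without control 3 the edgeR test called 4317 of 17755 genes (24.3%), 2454 higher (13.8%) and 1863 lower (10.5%), whereas with control 3 as the only control it called 0 of 18832 (0.0%), with 83 higher (0.441%) and 125 lower (0.664%) at an unadjusted p under 0.05. That last fit has 1 control library, so its lack of calls cannot show that BD and control 3 are alike. For 4159 of the 4317 genes called without control 3 (96.3%), control 3 lay nearer to the BD mean than to the mean of controls 1 and 2. In the plainest count, every BD library lay above every control library for 1362 genes (8.05%) and below every control library for 1306 (7.72%). Separations of size were fewer and mostly downward. They were measured between the nearest BD and control libraries after 0.5 CPM was added to each level, which shrinks ratios at low levels. By that measure 9 genes higher in BD (0.0532%) and 30 lower (0.177%) were at least 1.5-fold apart. At least 2-fold apart were 0 genes higher (0.0%) and 10 lower (0.0591%). The rankings by gap below use the same measure, whereas folds given for single genes have nothing added. In what follows, log2 fold changes are BD over control from the fit of all libraries, ± the standard error, unless another set of controls is named. The percentages above are the shares over all genes tested to be set beside the counts in the gene lists below.

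Among the 30 genes that lay at least 1.5-fold below every control with 0.5 CPM added, 9 were short non-coding RNAs of the nucleolus or of Cajal bodies. These were 9 of 70 such genes tested. Another 8 of the 30 were protein-coding, of 12592 tested. Over all genes tested the share was 0.177%. Small nucleolar RNAs (snoRNAs) guide the cutting and chemical modification of ribosomal RNA, and small Cajal body RNAs (scaRNAs) guide the chemical modification of spliceosomal RNAs. SNORD3A encodes the U3 snoRNA, which is needed for the early cuts of the ribosomal RNA precursor. Its sequence is shown with that of SNORD17, another long RNA of the box C/D class, because both lay below every control and shared, with the tRNA gene MT-TP, the lowest adjusted p of the comparison. Capitals mark the first TGATGA, the letters of box C, and the last CTGA, the letters of box D, with T written for U. Motifs of this kind bind core proteins of the class. The SNORD3A sequence is the shortest transcript of the gene in GENCODE 29 at chr17:19188016-19188232 of GRCh38, plus strand, and SNORD17 is at chr20:17962710-17962946, minus strand.
SNORD3A: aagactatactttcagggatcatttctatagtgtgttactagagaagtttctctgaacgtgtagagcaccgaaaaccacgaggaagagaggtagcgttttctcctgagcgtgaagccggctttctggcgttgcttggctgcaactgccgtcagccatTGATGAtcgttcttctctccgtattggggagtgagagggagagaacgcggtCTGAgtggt
SNORD17: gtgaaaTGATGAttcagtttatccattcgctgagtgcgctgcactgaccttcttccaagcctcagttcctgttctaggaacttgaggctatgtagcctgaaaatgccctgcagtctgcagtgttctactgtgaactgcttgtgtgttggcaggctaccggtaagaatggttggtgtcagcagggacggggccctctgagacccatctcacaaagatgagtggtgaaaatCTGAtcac

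SNORD3A stood at 1171, 1151 and 1329 CPM in BD replicates 1, 2 and 3 and at 9644, 11038.5 and 4797 CPM in controls 1, 2 and 3. All 3 BD libraries were below all 3 controls, by 3.61-fold for the nearest pair, and control 3 lay between BD and the other controls. The log2 fold change was -2.80 ± 0.35 (edgeR adjusted p = 0.142, DESeq2 adjusted p = 2.76e-16, limma-voom adjusted p = 0.0319), and -1.99 ± 0.30 against control 3 alone. The NBD libraries held 5393, 7733 and 6949.6 CPM. Annotated copies SNORD3B-1 and SNORD3C each differ from the printed SNORD3A at 1 of 217 positions, so reads cannot be assigned firmly among them. In bulk RNA a lower level per cell and fewer cells that hold an RNA cannot be told apart, here and in every result that follows. SNORD3B-1 held 1.42, 4.75 and 6.82 CPM in BD and 3.27, 3.87 and 4.29 CPM in control, which overlap.

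SNORD17 was at 18.9, 23.5 and 19.5 CPM in BD and 71.4, 102 and 49.1 CPM in control, with a log2 fold change of -1.84 ± 0.26 (edgeR adjusted p = 0.142, DESeq2 adjusted p = 2.78e-07). SCARNA5 was at 4.55, 7.85 and 6.48 CPM in BD and 55.9, 73.3 and 31.3 CPM in control, and SCARNA6 at 2.08, 3.53 and 2.86 CPM and 20.4, 27.7 and 8.21 CPM. Both scaRNAs lay below every control, with log2 fold changes of -3.09 ± 0.45 and -2.73 ± 0.45 (edgeR adjusted p = 0.167 and 0.272). SNORA74A, a box H/ACA RNA, held 0.486, 0.471 and 0.517 CPM in BD and 7.46, 7.85 and 1.54 CPM in control, and SNORA53, of the same class, 0.417, 0.707 and 0.310 CPM and 3.83, 5.27 and 1.92 CPM. Again no BD library reached the lowest control. Against control 3 alone the log2 fold changes of these 5 RNAs ranged from -1.26 ± 0.25 for SNORD17 to -2.32 ± 0.48 for SCARNA5.

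**Figure D1:**
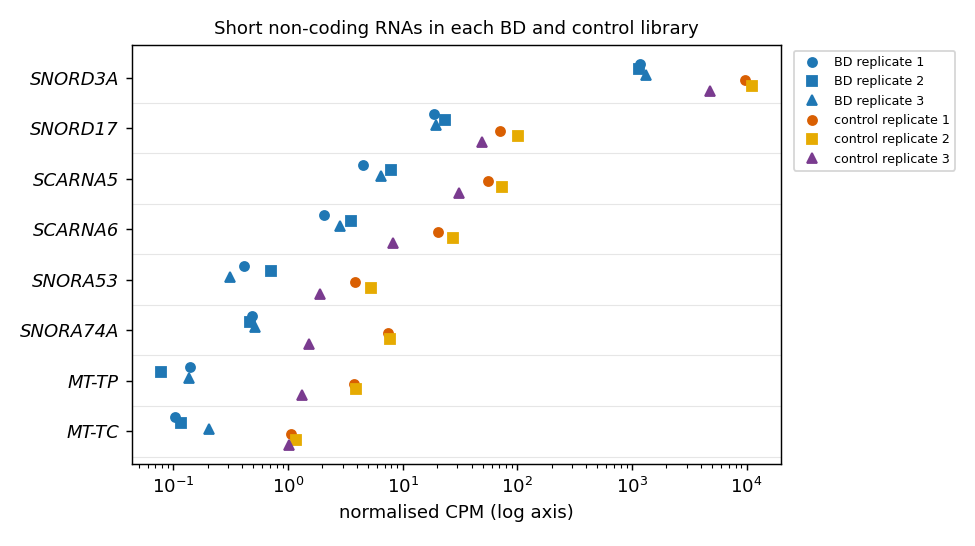
Normalised CPM (log axis) of 6 small nucleolar or Cajal body RNAs and 2 mitochondrial tRNAs in each library, with BD in blue and each control library in its own colour. For every RNA drawn the 3 BD libraries lie left of the 3 controls, and control replicate 3 is the control nearest to them.

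No annotated gene was found to contain SNORD3A. The other short RNAs above lie within other genes, in introns or overlapping an exon, and those genes did not show a gap of that size. SNORD17 is within introns of SNX5, a sorting nexin, which held 164, 140.0 and 118 CPM in BD and 197, 191 and 144 CPM in control, which overlap. It is within introns of OVOL2, an epithelial transcription factor, too, which lay above every control at 5.35, 6.36 and 6.31 CPM in BD and 2.20, 2.30 and 5.01 CPM in control. Both scaRNAs are within introns of the autophagy gene ATG16L1, at 36.6, 33.9 and 35.5 CPM in BD and 56.5, 64.9 and 35.6 CPM in control, where control 3 falls inside the BD range. SNORA53 overlaps an annotated exon of SLC25A3, the mitochondrial phosphate carrier, at 449, 529.6 and 422 CPM and 449, 536 and 381 CPM. SNHG4, a non-coding transcript around SNORA74A, was lower in BD in every library, at 16.7, 8.17 and 8.34 CPM against 59.6, 56.1 and 18.2 CPM, although MATR3, which contains it too, was at 462, 520.3 and 469.9 CPM and 476, 425 and 436 CPM.

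The order was shared by some other members of the class and not by all. Of the 25 short non-coding RNAs listed, 12 had enough counts to be tested. Of the 13 others, 12 were listed with no read in any BD or control library, RN7SK and SNORD118 among them. Of the 12, 6 lay below every control and 1 above. Their median log2 fold change was -1.75, beside 0.03 over all genes tested. Over all annotated snoRNA and scaRNA genes tested, 14 of 70 (20%) lay below every control and 3 above. Over all genes tested these shares were 7.72% and 8.05%. All snoRNA and scaRNA counts together took 0.170%, 0.149% and 0.173% of counts in BD and 1.10%, 1.22% and 0.542% in control (exact permutation test, two-sided, p = 0.1, the smallest that 3 against 3 can give). Without SNORD3A the shares were 0.0482%, 0.0355% and 0.0402% in BD and 0.0543%, 0.0691% and 0.0476% in control, which overlap (exact permutation test, p = 0.2). RMRP, the RNA of a nuclease that acts on the ribosomal RNA precursor, held 3286, 3875 and 3018 CPM in BD and 6120.1, 8050.5 and 2799.8 CPM in control, with control 3 below every BD library. TERC, the RNA template of telomerase, was the member above all controls, at 145, 179 and 156 CPM in BD and 72.4, 102 and 139.5 CPM in control.

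A pair of mitochondrial tRNAs showed the same order at very low counts. MT-TP, the proline tRNA, had 4, 2 and 4 reads in BD and 74, 70 and 35 reads in control, and MT-TC, the cysteine tRNA, had 3, 3 and 6 and 21, 21 and 27 reads. The groups did not overlap, but counts this low leave the size of the difference imprecise. Their log2 fold changes were -4.59 ± 0.63 and -2.88 ± 0.55 (edgeR adjusted p = 0.142 and 0.333). Of 10 mitochondrial tRNAs tested, 4 lay below every control and 0 above, beside 7.72% and 8.05% of all genes tested.

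Among protein-coding genes with a mean of at least 5 CPM in the higher group, the 10 with the widest gap above all controls are described by what they encode, an order set after their values were seen. SMPD1, TPP1 and SLC15A3 encode proteins of the lysosome. The acid sphingomyelinase gene SMPD1 was at 9.45, 10.1 and 9.06 CPM in BD and 3.27, 3.87 and 5.50 CPM in control (log2 fold change 1.18 ± 0.29). TPP1, a lysosomal peptidase, was at 44.0, 43.0 and 53.4 CPM in BD and 22.8, 26.2 and 26.9 CPM in control (log2 fold change 0.88 ± 0.17), and control 3 was here as low as the other controls. SLC15A3, a lysosomal peptide transporter, was at 10.9, 7.30 and 7.13 CPM and 1.48, 1.18 and 4.14 CPM (log2 fold change 1.88 ± 0.48). The edgeR adjusted p was 0.333 for each of the 3, and the DESeq2 adjusted p was 0.0204, 0.00363 and 0.0191. The nearest BD and control libraries were 1.65-, 1.60- and 1.72-fold apart.

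ANXA8 and DYSF encode proteins that bind or repair membranes. ANXA8, an annexin that binds membrane lipid in the presence of calcium, was at 198, 220.4 and 201 CPM in BD and 77.4, 98.8 and 144 CPM in control (log2 fold change 0.95 ± 0.22). ANXA8L1 was at 105, 114 and 96.2 CPM and 51.8, 56.4 and 71.8 CPM, but it is a near-identical copy of ANXA8, so these are uncertain as separate measurements. DYSF, dysferlin, which takes part in membrane repair, was at 8.58, 7.85 and 7.58 CPM in BD and 0.613, 1.009 and 5.42 CPM in control, with control 3 far nearer to BD than to the other controls. MAN1B1, a mannosidase of the secretory pathway that trims glycans of misfolded proteins, was at 193, 203 and 181 CPM and 103, 123 and 129 CPM, with no overlap. PTRHD1 (16.5, 18.8 and 15.1 CPM against 6.23, 8.24 and 10.8 CPM), PPDPF (27.3, 30.1 and 30.0 CPM against 15.8, 20.1 and 18.7 CPM) and TRIB3, described with its pathway below, complete the 10. The edgeR adjusted p was 0.344 for DYSF and 0.333 for the other genes of this paragraph.

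On the low side, the gap was widest for STC1, which encodes the secreted glycoprotein stanniocalcin-1. STC1 was at 0.729, 1.41 and 2.14 CPM in BD and 9.25, 8.91 and 4.52 CPM in control (log2 fold change -2.40 ± 0.63, edgeR adjusted p = 0.333, DESeq2 adjusted p = 0.0140). The other 9 genes with the widest gap below are again ordered by what they encode, after their values were seen. AFDN, the adherens junction adaptor afadin, was at 35.7, 34.1 and 35.5 CPM in BD and 112, 109.5 and 57.2 CPM in control (log2 fold change -1.41 ± 0.26, DESeq2 adjusted p = 0.000752). MAGI1, a scaffold of tight junctions, was at 3.68, 3.26 and 3.86 CPM and 7.15, 7.74 and 5.91 CPM, and PARD6G, a subunit of the Par polarity complex, at 2.57, 2.98 and 3.24 CPM and 11.1, 13.1 and 4.97 CPM. In all 3 the BD libraries lay close together, and control 3 lay between them and the other controls.

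The other members of the 10 include regulators of transcription. ZNF589, a zinc finger protein, was at 5.45, 4.16 and 4.69 CPM in BD and 11.3, 11.2 and 9.60 CPM in control, and here the 3 controls lay close together (log2 fold change -1.16 ± 0.23, DESeq2 adjusted p = 0.000543). SCML1, of the Polycomb-like family, was at 13.2, 14.8 and 11.1 CPM and 29.5, 24.4 and 22.7 CPM, and ZNF8 at 10.2, 8.68 and 10.1 CPM and 19.2, 22.3 and 15.0 CPM. FAM118A was at 16.1, 10.2 and 13.1 CPM and 23.6, 25.1 and 24.7 CPM, the controls again within a narrow range. FAM72D (1.77, 2.12 and 1.86 CPM against 7.46, 5.55 and 3.39 CPM) and GOLGA8A (2.26, 0.785 and 1.41 CPM against 11.5, 11.4 and 3.58 CPM) belong to families of near-identical copies, so their counts are uncertain. The edgeR adjusted p was 0.333 for all 10 genes.

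**Figure D2:**
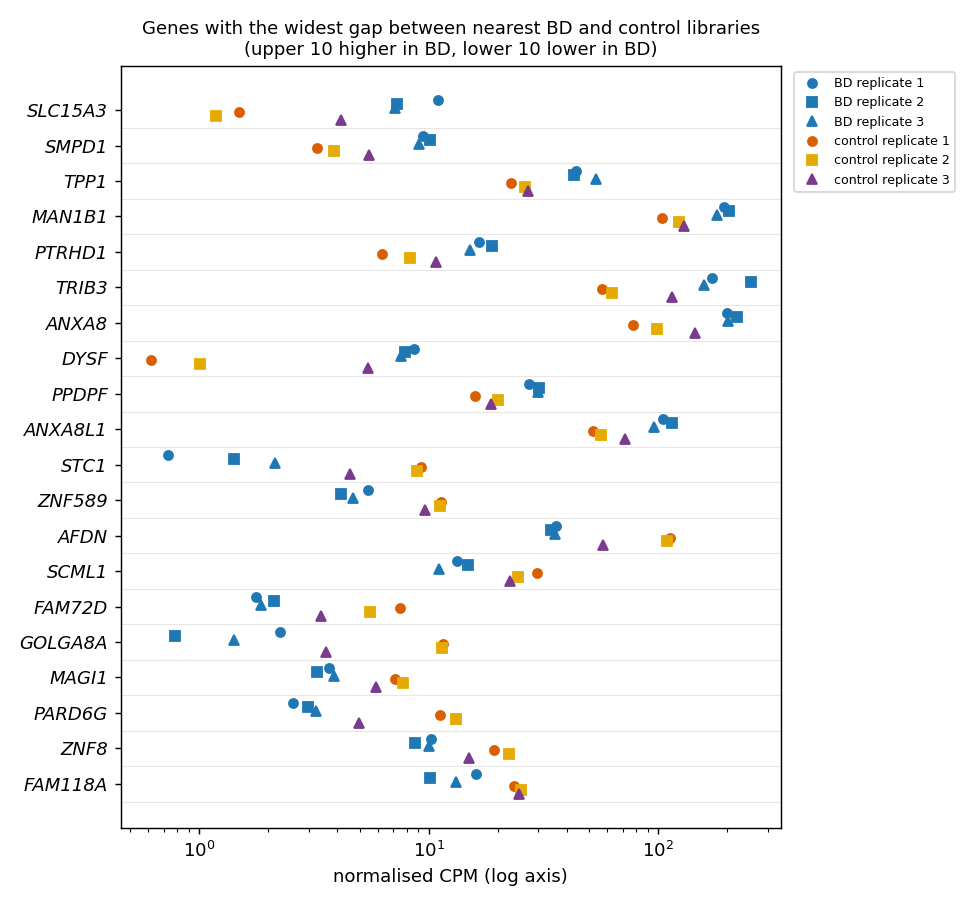
Normalised CPM (log axis) of the 20 protein-coding genes with the widest gap between the nearest BD and control libraries, the upper 10 higher in BD and the lower 10 lower. In most rows control replicate 3 lies between BD and the other controls, whereas TPP1, PPDPF, ZNF589 and FAM118A have all 3 controls close together.

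Among mRNAs on the low side were genes of mitosis. Of 31 genes of G2 and mitosis, all tested, 11 lay below every control, beside 7.72% of all genes tested, 0 lay above, and 27 had a log2 fold change under 0. The median log2 fold change was -0.36 with all controls, -0.50 without control 3 and -0.16 against control 3 alone. None was called by edgeR with all libraries, and DESeq2 called 2 lower, beside 0.922% of all genes tested. At an unadjusted p under 0.05, 8 were lower, beside 9.06%. Without control 3, 8 were called lower, beside 10.5%. CDK1, the kinase that drives entry into mitosis, was at 64.1, 75.3 and 65.5 CPM in BD and 206, 177 and 94.0 CPM in control (log2 fold change -1.22 ± 0.29, edgeR adjusted p = 0.333, DESeq2 adjusted p = 0.0214). CENPA, the histone H3 variant of centromeres, was at 11.5, 13.3 and 13.9 CPM and 22.2, 25.4 and 18.4 CPM (log2 fold change -0.77 ± 0.20, DESeq2 adjusted p = 0.0489). AURKA, a kinase of the spindle poles, was at 90.0, 107 and 90.0 CPM and 188, 195 and 113 CPM (log2 fold change -0.79 ± 0.24). BUB1B, of the spindle checkpoint, was at 107, 95.7 and 84.2 CPM and 147, 140.0 and 116 CPM, and TOP2A, which untangles DNA, at 586, 566 and 531 CPM and 876, 664 and 717 CPM. In each of these 5 genes the groups did not overlap, and in all but TOP2A control 3 was the control nearest to BD. MKI67, a marker of dividing cells, was at 260.5, 146 and 135 CPM in BD and 591, 486 and 258 CPM in control (log2 fold change -1.30 ± 0.43), and BD replicate 1 exceeded control 3.

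Genes of S phase were not separated in this way. Of 26 genes of S phase and replication, 0 lay above and 0 below every control, beside 8.05% and 7.72% of all genes tested. The median log2 fold change was -0.07. RRM2, a subunit of the enzyme that makes deoxynucleotides, was at 104, 98.3 and 69.3 CPM in BD, 177 and 186 CPM in controls 1 and 2 and 79.2 CPM in control 3. MCM6, of the replicative helicase, was at 100.3, 106 and 86.6 CPM in BD, 205 and 212 CPM in controls 1 and 2 and 81.7 CPM in control 3, below every BD library. Among 20 tested inhibitors of the cycle and p53 targets, 1 lay above and 1 below, with a median of -0.13. CDKN1A, the cell cycle inhibitor p21, was at 14.3, 25.4 and 38.1 CPM in BD and 15.1, 15.6 and 26.3 CPM in control, which overlap (log2 fold change 0.45 ± 0.42, edgeR adjusted p = 0.59996). CDKN1B, the inhibitor p27, lay below every control at 27.1, 24.3 and 26.0 CPM against 36.7, 37.2 and 30.1 CPM, and TP53I3, a p53 target, above every control at 6.84, 6.05 and 6.96 CPM against 1.89, 2.52 and 5.39 CPM. Cyclin D1, from CCND1, was at 196, 211 and 179 CPM in BD, 409.6 and 472 CPM in controls 1 and 2, and 185 CPM in control 3. Of 35 replication-dependent histone genes tested, 0 lay above and 0 below every control, with a median of 0.12. Their summed share of counts was 0.610%, 1.25% and 0.860% in BD and 0.730%, 0.878% and 0.903% in control (exact permutation test, p = 0.9).

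The mitochondrial genome encodes core subunits of the respiratory chain. Of its 13 mRNAs, 6 lay below every control and 0 above, beside 7.72% and 8.05% of all genes tested. The median log2 fold change was -0.49 with all controls, -0.53 without control 3 and -0.45 against control 3 alone. MT-ND4, of complex I, was at 81.8, 65.1 and 73.0 CPM in BD and 122, 135 and 107 CPM in control (log2 fold change -0.73 ± 0.20, edgeR adjusted p = 0.333, DESeq2 adjusted p = 0.0496). MT-ND5 was at 47.0, 30.0 and 36.1 CPM and 72.1, 72.8 and 51.1 CPM (log2 fold change -0.79 ± 0.23), and MT-ND4L at 18.3, 12.5 and 13.3 CPM and 31.5, 37.7 and 21.4 CPM (log2 fold change -1.04 ± 0.28). MT-CYB, of complex III, was at 74.6, 65.8 and 76.4 CPM and 109, 136 and 89.1 CPM (log2 fold change -0.62 ± 0.19), and MT-ATP6, of the ATP synthase, at 36.0, 28.9 and 34.0 CPM and 44.5, 53.4 and 50.7 CPM (log2 fold change -0.59 ± 0.22). The edgeR adjusted p was 0.333 for the first 4 of these and 0.344 for MT-ATP6. Subunits of complex IV did not share this order. MT-CO3 was at 2671, 2069 and 2433 CPM in BD, 773 and 842 CPM in controls 1 and 2 and 2442 CPM in control 3, and MT-CO1 at 1957, 1560.4 and 1891 CPM in BD and 1506, 1451 and 1996 CPM in control. The 13 mRNAs together took 0.547%, 0.413% and 0.499% of counts in BD and 0.317%, 0.314% and 0.538% in control (exact permutation test, two-sided, p = 0.3), so that their summed share and their median differ in sign.

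Nuclear genes of the same chain had a median log2 fold change of 0.16 over 37 genes. Of these, 4 lay above every control and 1 below, beside 8.05% and 7.72% of all genes tested. COX6A1 was at 142, 163 and 151 CPM in BD and 77.6, 85.8 and 121 CPM in control (log2 fold change 0.68 ± 0.23), COX5A at 105, 139 and 118 CPM and 67.7, 80.0 and 98.8 CPM (log2 fold change 0.55 ± 0.21), and NDUFB10 at 94.3, 127 and 109.9 CPM and 55.0, 69.4 and 95.02 CPM (log2 fold change 0.59 ± 0.23). Of 51 ribosomal protein genes, none lay above or below every control, none had an unadjusted p under 0.05, and the median log2 fold change was 0.13.

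**Figure D3:**
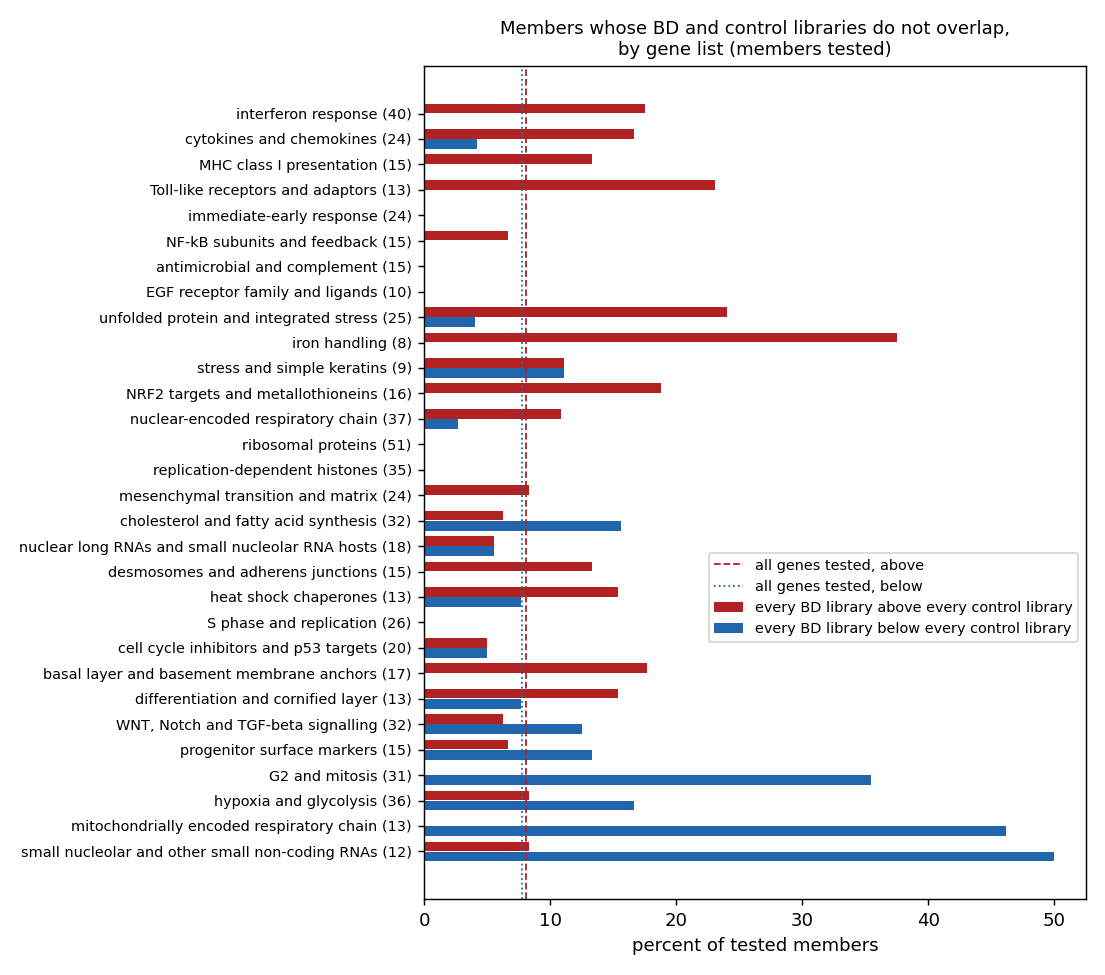
Percent of the tested members of each gene list for which every BD library lies above (red) or below (blue) every control library, with dashed and dotted lines at the 8.05% and 7.72% of all genes tested. Bars below are longest for the short non-coding RNAs (6 of 12), the mitochondrially encoded mRNAs (6 of 13) and the genes of G2 and mitosis (11 of 31), and the lists with few members move in coarse steps.

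Some genes of the unfolded protein and integrated stress responses lay on the high side. Both responses are set off by misfolded protein or lack of amino acids and raise, through ATF4, enzymes of amino acid synthesis and a set of regulators. Of 25 genes tested, 6 lay above every control, beside 8.05% of all genes tested, and 1 below, and the median log2 fold change was 0.35 with all controls, 0.59 without control 3 and 0.22 against control 3 alone. At an unadjusted p under 0.05, 7 were higher and 1 lower, beside 4.73% and 9.06% of all genes tested. None was called by edgeR with all libraries. Without control 3, 10 were called higher and 1 lower, beside 13.8% and 10.5%. TRIB3, a pseudokinase that feeds back on this response, was at 172, 254 and 159 CPM in BD and 56.8, 62.8 and 115 CPM in control (log2 fold change 1.32 ± 0.29, edgeR adjusted p = 0.333, DESeq2 adjusted p = 0.00962). DDIT3, the transcription factor CHOP, was at 25.9, 33.3 and 32.7 CPM and 10.5, 10.8 and 23.1 CPM (log2 fold change 1.05 ± 0.29), and HERPUD1, of the degradation of misfolded proteins, at 52.4, 79.9 and 90.5 CPM and 33.9, 36.6 and 48.6 CPM (log2 fold change 0.90 ± 0.24). SESN2, a sensor of leucine, was at 32.4, 40.0 and 31.6 CPM and 9.66, 9.92 and 26.6 CPM (log2 fold change 1.16 ± 0.37), and PHGDH, the first enzyme of serine synthesis, at 189.9, 266 and 234 CPM and 118, 127 and 186 CPM (log2 fold change 0.68 ± 0.22). CHAC1, which degrades glutathione, was at 25.6, 51.4 and 29.8 CPM in BD and 5.42, 6.62 and 26.4 CPM in control, where control 3 fell within the BD range. VLDLR, a lipoprotein receptor listed with them, was the member below every control, at 0.834, 0.589 and 0.483 CPM against 2.45, 1.57 and 0.866 CPM. The edgeR adjusted p of these 7 genes lay between 0.333 and 0.343.

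Larger differences from controls 1 and 2 were measured in groups of genes for which control 3 was near the level of BD. Interferon response genes were the list with the most members called without control 3. Interferons act through STAT and IRF transcription factors on genes whose products block viruses and present antigen. All 40 tested members had a log2 fold change above 0, with a median of 0.92. Of these, 7 lay above every control and 0 below, beside 8.05% and 7.72% of all genes tested. At an unadjusted p under 0.05, 13 were higher, beside 4.73%, and none was called by edgeR or DESeq2. Without control 3, 31 were called higher, beside 13.8% of all genes tested, and the median was 1.51. Against control 3 alone the median was 0.06. MX1, an antiviral GTPase, was at 52.7, 28.97 and 31.8 CPM in BD, 4.19 and 3.53 CPM in controls 1 and 2 and 22.2 CPM in control 3 (log2 fold change 1.91 ± 0.63, edgeR adjusted p = 0.333, and 3.30 ± 0.40 without control 3, edgeR adjusted p = 0.000389). OAS1, a sensor of double-stranded RNA, was at 80.3, 88.8 and 99.5 CPM in BD, 8.02 and 8.19 CPM in controls 1 and 2 and 81.6 CPM in control 3, so that BD was 11.05-fold above the mean of the first 2 controls and 1.10-fold control 3. Its relatives OAS2 (60.8, 51.5 and 61.9 CPM against 20.2, 22.7 and 48.3 CPM) and OAS3 (434, 308 and 344 CPM against 97.4, 106 and 299 CPM) lay above every control. IRF1, a transcription factor of the response, was at 172, 188 and 193 CPM in BD and 70.5, 71.6 and 134 CPM in control (log2 fold change 1.00 ± 0.28), and USP18, which dampens it, at 16.7, 20.3 and 18.6 CPM and 7.87, 8.52 and 14.7 CPM (log2 fold change 0.84 ± 0.26). HERC6 was at 38.9, 41.2 and 44.2 CPM and 8.12, 8.30 and 37.1 CPM, and IFI35 at 26.0, 28.4 and 23.6 CPM and 3.88, 5.72 and 23.7 CPM, with control 3 inside the BD range for IFI35. IFI27 completes the 7 above every control, at 2.36, 0.942 and 1.10 CPM and 0.562, 0.729 and 0.716 CPM.

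Promoters of 2 members are shown because these genes share an interferon-type motif near the start. IFI6 encodes a small protein of mitochondria and the endoplasmic reticulum, at 13.3, 7.89 and 7.65 CPM in BD and 2.30, 2.19 and 7.80 CPM in control (log2 fold change 1.22 ± 0.51), and ISG20 a nuclease of single-stranded RNA, at 5.66, 11.8 and 13.3 CPM and 1.89, 2.86 and 7.46 CPM (log2 fold change 1.32 ± 0.50). In both, control 3 lay within the BD range. The windows run from 250 bases before to 50 after the annotated start (RefSeq, GRCh38.p14): IFI6 at chr1:27672143-27672442, minus strand, and ISG20 at chr15:88638766-88639065, plus strand. Capitals mark GAAANNGAAA, the spacing of an interferon-stimulated response element, searched on both strands.
IFI6: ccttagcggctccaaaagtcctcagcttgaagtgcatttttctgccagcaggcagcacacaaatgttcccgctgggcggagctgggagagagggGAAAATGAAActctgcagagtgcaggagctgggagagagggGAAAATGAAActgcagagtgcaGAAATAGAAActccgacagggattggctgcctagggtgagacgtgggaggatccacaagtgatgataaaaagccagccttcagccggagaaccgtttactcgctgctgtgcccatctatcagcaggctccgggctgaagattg
ISG20: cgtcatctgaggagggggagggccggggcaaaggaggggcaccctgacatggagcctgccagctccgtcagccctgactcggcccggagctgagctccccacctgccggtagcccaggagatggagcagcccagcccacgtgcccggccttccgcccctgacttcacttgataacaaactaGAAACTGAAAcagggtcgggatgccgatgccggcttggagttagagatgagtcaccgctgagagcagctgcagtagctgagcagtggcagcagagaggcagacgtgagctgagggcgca

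IFI6 held 3 matches and ISG20 held 1. Of the 41 listed genes 32 had a RefSeq window, and 22 of those 32 held the motif, beside 1195 of 27305 genes (4.38%) and 1255 of 35116 windows (3.57%) overall. A match describes the letters in the window and not binding of a factor.

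Of 15 genes of MHC class I presentation all had a log2 fold change above 0 (median 0.69). Above every control lay 2, beside 8.05% of all genes tested, and 11 were called higher without control 3, beside 13.8%. TAP1, which carries peptides into the endoplasmic reticulum, was at 188, 229 and 215 CPM in BD, 62.4 and 68.3 CPM in controls 1 and 2 and 159 CPM in control 3 (log2 fold change 1.12 ± 0.33, and 1.70 ± 0.20 without control 3). The class I heavy chain gene HLA-C, whose close relatives share reads with it, was at 173, 228 and 251 CPM in BD, 64.0 and 75.1 CPM and 209.9 CPM. The immunoproteasome subunits PSMB8 (123, 171 and 149 CPM against 60.4, 73.1 and 124 CPM) and PSMB10 (32.8, 42.7 and 39.0 CPM against 9.09, 8.63 and 34.2 CPM) followed the same order, with control 3 inside the BD range. ERAP1, which trims peptides, lay just above every control at 126, 120.2 and 137 CPM against 89.0, 88.0 and 119 CPM. Against control 3 alone the median over the 15 genes was 0.08.

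Among 13 tested Toll-like receptors and adaptors, 3 lay above every control and 0 below, beside 8.05% and 7.72% of all genes tested. Without control 3, 9 were called higher, beside 13.8%. The median log2 fold change was 0.68, and 0.03 against control 3 alone. TLR3, which binds double-stranded RNA, was at 49.0, 42.1 and 43.4 CPM in BD, 13.4 and 9.25 CPM in controls 1 and 2 and 36.5 CPM in control 3 (log2 fold change 1.18 ± 0.43). MYD88, the adaptor of most Toll-like receptors, was at 14.8, 16.2 and 18.5 CPM and 8.43, 9.20 and 13.2 CPM (log2 fold change 0.68 ± 0.22), and the kinase IRAK4 at 33.6, 39.3 and 34.4 CPM and 23.9, 24.2 and 30.8 CPM (log2 fold change 0.44 ± 0.18). TLR2, a receptor of bacterial lipopeptides, had 540, 432 and 414 reads in BD and 0, 0 and 432 reads in control. Controls 1 and 2 had no read, so that BD was at least 104-fold higher than 3 counts per library would give there, and 1.02-fold the level of control 3.

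NF-kB, the transcription factor below these receptors, had 15 listed subunits and feedback genes, with a median log2 fold change of 0.64 and 0.01 against control 3 alone. ICAM1 alone lay above every control, and 10 members were called higher without control 3, beside 13.8% of all genes tested. This adhesion molecule, whose gene NF-kB raises, was at 9.76, 12.1 and 11.8 CPM in BD and 5.01, 4.54 and 8.32 CPM in control (ICAM1 log2 fold change 0.91 ± 0.28). NFKBIE and TNIP1, both inhibitors of the pathway, were at 16.3, 23.9 and 19.5 CPM and 139, 250.2 and 207 CPM in BD and at 7.72, 8.35 and 16.5 CPM and 92.3, 109 and 181 CPM in control. NFKBIA, the main inhibitor, was at 211, 263 and 304 CPM in BD, 52.5 and 51.9 CPM in controls 1 and 2 and 257 CPM in control 3.

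Of 24 tested cytokine and chemokine genes, 4 lay above every control and 1 below, beside 8.05% and 7.72% of all genes tested. The median log2 fold change was 0.76 with all controls, 2.56 without control 3 and -0.25 against control 3 alone. Without control 3, 15 were called higher, beside 13.8% of all genes tested. CCL5, a chemokine for T cells, was at 4.41, 4.55 and 3.17 CPM in BD and 1.07, 2.02 and 2.30 CPM in control (log2 fold change 1.16 ± 0.36, edgeR adjusted p = 0.333). CCL2, a chemokine for monocytes, was at 295, 344 and 256 CPM in BD, 2.81 and 2.41 CPM in controls 1 and 2 and 247 CPM in control 3. IL6 was at 14.7, 42.1 and 53.7 CPM in BD and 2.86, 2.92 and 25.4 CPM in control, and BD replicate 1 was below control 3. CXCL8, a chemokine for neutrophils, was at 144, 156 and 234 CPM in BD, 9.96 and 9.08 CPM in controls 1 and 2 and 249 CPM in control 3, the highest of the 6. IL1B was at 48.7, 59.8 and 58.7 CPM in BD and 48.9, 54.7 and 58.9 CPM in control, with no such split. TNF (0.729, 0.589 and 1.31 CPM against 0.102, 0.112 and 0.527 CPM) and CXCL11 (0.938, 0.864 and 0.551 CPM against 0.0511, 0.0561 and 0.452 CPM) lay above every control at low levels, and CXCL6 was the member below, at 5.21, 3.77 and 4.89 CPM against 5.82, 5.49 and 7.95 CPM.

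Antimicrobial, immediate-early and EGF receptor family genes had 8, 15 and 5 members called higher and 1, 1 and 2 called lower without control 3. In that fit 13.8% of all genes tested were called higher and 10.5% lower. Of 15 tested antimicrobial and complement genes, 0 lay above or below every control, and the median log2 fold change was 0.50 with all controls, 3.73 without control 3 and -0.40 against control 3 alone. LCN2, lipocalin 2, which withholds iron from bacteria, was at 811, 1476 and 2089 CPM in BD, 1.02 and 1.23 CPM in controls 1 and 2 and 1808 CPM in control 3. Complement C3 was at 869.6, 824 and 1090.2 CPM in BD, 24.7 and 29.3 CPM in controls 1 and 2 and 843 CPM in control 3. CD59, which shields cells from complement, had the opposite order, at 108, 141 and 134 CPM in BD, 300.2 and 300.4 CPM and 114 CPM. Among 24 immediate-early genes, which respond to stimuli within minutes, 0 lay above or below every control, with medians of 0.64, 2.09 and -0.15 in the same order of fits. FOS was at 186, 387 and 589 CPM in BD, 2.76 and 3.31 CPM in controls 1 and 2 and 518 CPM in control 3, and the BD libraries themselves ranged over 3-fold. DUSP2, a phosphatase of MAP kinases, was the member lower than controls 1 and 2, at 0.729, 0.510 and 1.28 CPM in BD and 6.08, 6.28 and 0.829 CPM in control. Among 10 tested genes of the EGF receptor family and its ligands, 0 lay above or below every control, with a median of 0.41. EREG, epiregulin, was at 155, 174 and 167 CPM in BD, 8.79 and 9.25 CPM in controls 1 and 2 and 169 CPM in control 3, and TGFA had the opposite order at 40.4, 59.0 and 48.5 CPM, 122 and 131 CPM and 46.8 CPM.

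**Figure D4:**
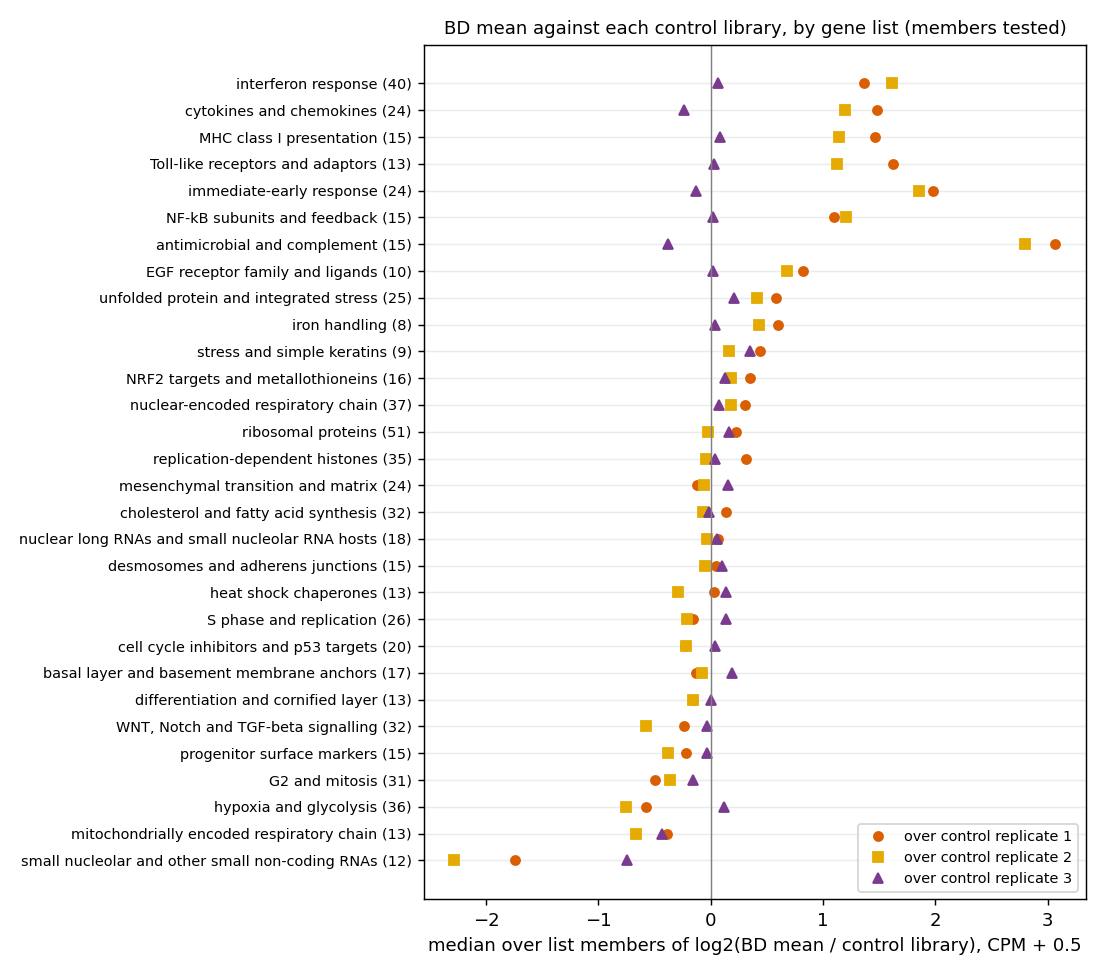
Median over the tested members of each gene list of the log2 ratio of the BD mean to each control library singly, with 0.5 CPM added. Ratios to control replicates 1 and 2 reach from -2.28 to 3.07, whereas ratios to control replicate 3 stay between -0.745 and 0.348.

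Genes of the response to low oxygen had more members on the low side. Without control 3, 16 of 36 were called lower, beside 10.5% of all genes tested, and 5 higher, beside 13.8%. Cells short of oxygen stabilise HIF, which raises genes of glycolysis, pH control and mitophagy. With all controls, 6 lay below every control and 3 above, beside 7.72% and 8.05% of all genes tested. At an unadjusted p under 0.05, 12 were lower and 5 higher, beside 9.06% and 4.73%. DESeq2 called 7 lower, beside 0.922%. The median log2 fold change was -0.49, with -0.66 without control 3 and 0.12 against control 3 alone. CA9, a carbonic anhydrase of the cell surface, was at 0.590, 0.510 and 1.17 CPM in BD, 7.46 and 8.41 CPM in controls 1 and 2 and 1.24 CPM in control 3 (log2 fold change -2.90 ± 0.66, edgeR adjusted p = 0.333, DESeq2 adjusted p = 0.00305). CA12, its relative, was at 0.0347, 0.118 and 0.414 CPM in BD and 5.26, 6.34 and 0.490 CPM in control (log2 fold change -4.36 ± 1.04, DESeq2 adjusted p = 0.00244). BNIP3, a receptor of mitophagy, was at 5.87, 6.91 and 6.72 CPM in BD, 95.4 and 91.3 CPM in controls 1 and 2 and 5.99 CPM in control 3, so that controls 1 and 2 averaged 14.4-fold the BD mean and control 3 fell inside the BD range. NDRG1 was at 10.6, 13.1 and 21.1 CPM in BD, 183 and 165 CPM and 13.7 CPM. HK2 and LDHA, of glycolysis, were at 23.5, 21.7 and 19.9 CPM and 559, 604 and 497 CPM in BD, with 92.9, 89.7 and 20.8 CPM and 2128, 2182 and 477 CPM in control. VEGFA, a growth factor for vessels that HIF also raises, did not share the order, at 76.0, 107 and 107 CPM in BD and 63.5, 66.2 and 126 CPM in control.

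The promoter windows of CA9 (chr9:35673678-35673977, plus strand) and BNIP3 (chr10:131981874-131982173, minus strand) are shown as members with the same order of libraries, again 250 bases before to 50 after the start. Capitals mark ACGTG, the core letters to which HIF binds, searched on both strands, so that CACGT is the same letters on the other strand. In BNIP3 a match on each strand overlaps in the palindrome CACGTG.
CA9: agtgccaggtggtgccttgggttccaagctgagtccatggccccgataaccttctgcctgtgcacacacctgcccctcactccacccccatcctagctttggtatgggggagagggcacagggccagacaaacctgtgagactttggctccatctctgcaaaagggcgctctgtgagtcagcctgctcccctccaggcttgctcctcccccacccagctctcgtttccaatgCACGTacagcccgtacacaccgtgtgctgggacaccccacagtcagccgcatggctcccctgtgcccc
BNIP3: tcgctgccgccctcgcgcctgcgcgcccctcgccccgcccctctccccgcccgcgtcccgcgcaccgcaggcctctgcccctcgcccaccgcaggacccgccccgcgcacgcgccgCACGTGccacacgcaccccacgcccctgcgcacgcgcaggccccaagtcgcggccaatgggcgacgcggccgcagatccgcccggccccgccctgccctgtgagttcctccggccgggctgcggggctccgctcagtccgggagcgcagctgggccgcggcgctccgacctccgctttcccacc

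Of the 36 listed genes 33 had a window and 21 of these held ACGTG, beside 6790 of 27305 genes (24.9%) and 7518 of 35116 windows (21.4%). Of the windows that held it, 33.9% held it as CACGTG, which other factors bind as well. No reading of HIF activity follows from a match.

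**Figure D5:**
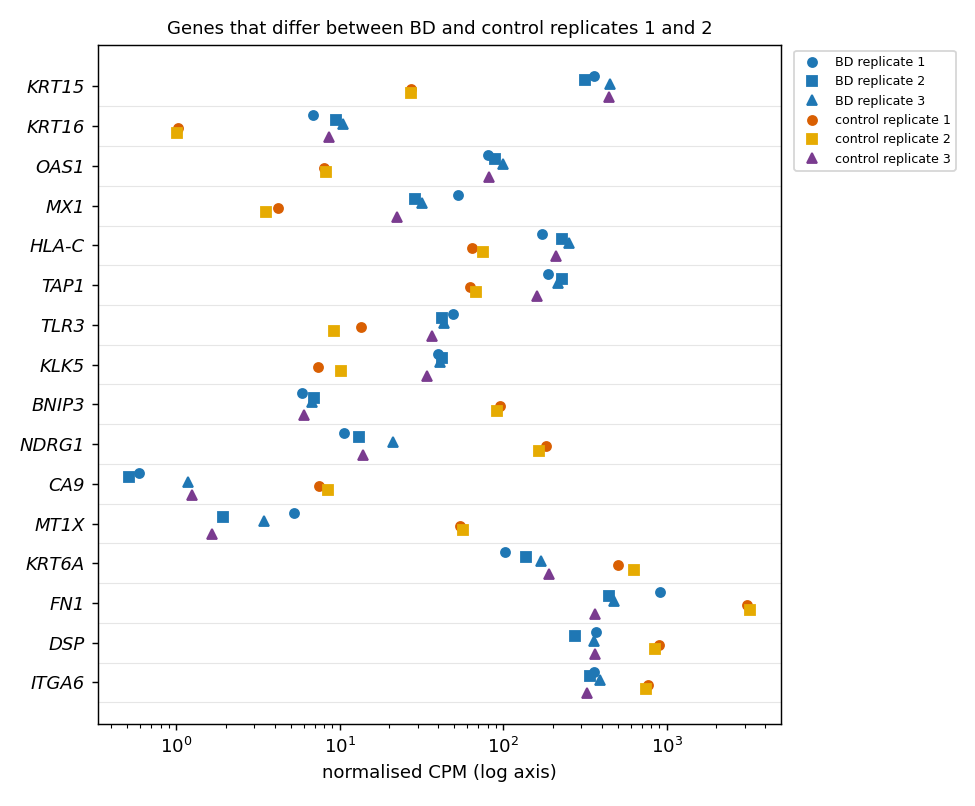
Normalised CPM (log axis) of 16 genes in each BD and control library. Control replicate 3 lies among or beside the BD libraries in every row, and controls 1 and 2 lie together on the other side.

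Metabolic and redox genes showed both orders. Of 16 tested NRF2 targets and metallothioneins, 3 lay above every control and 0 below, beside 8.05% and 7.72% of all genes tested. Their median log2 fold change was 0.29. MT1X, a metallothionein, was at 5.21, 1.92 and 3.41 CPM in BD, 54.6 and 56.9 CPM in controls 1 and 2 and 1.66 CPM in control 3 (log2 fold change -3.42 ± 0.94). TXNRD1, thioredoxin reductase, was at 184, 155 and 155 CPM in BD, 446 and 456 CPM and 135 CPM, and HMOX1, heme oxygenase, lay above every control at 4.34, 3.18 and 2.72 CPM against 1.53, 1.68 and 2.30 CPM. Among 8 tested genes of iron handling, 3 lay above every control and 0 below, with a median of 0.35. NCOA4, the receptor that delivers ferritin to lysosomes, was at 505, 629 and 575 CPM in BD and 277, 285 and 409.7 CPM in control (log2 fold change 0.82 ± 0.25, edgeR adjusted p = 0.333). FTL, the ferritin light chain, was at 655, 612 and 553 CPM and 389.9, 439 and 516 CPM (log2 fold change 0.44 ± 0.19), and ACO1, which binds iron-responsive mRNAs, at 38.8, 40.9 and 36.7 CPM and 22.4, 26.9 and 31.9 CPM (log2 fold change 0.52 ± 0.18). TFRC, the transferrin receptor, which has also been used with integrins to sort keratinocytes, was at 464, 322 and 351 CPM in BD and 655, 729 and 447 CPM in control (log2 fold change -0.69 ± 0.24, edgeR adjusted p = 0.333), and BD replicate 1 exceeded control 3.

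Of 32 genes of cholesterol and fatty acid synthesis, 2 lay above every control and 5 below, beside 8.05% and 7.72% of all genes tested. Their median was 0.03. SCD, the stearoyl-CoA desaturase, was at 286, 418 and 423 CPM in BD and 1092, 1043 and 459 CPM in control (log2 fold change -1.20 ± 0.43). ACACA, which makes malonyl-CoA, was at 154, 139 and 136 CPM and 291, 304 and 172 CPM (log2 fold change -0.84 ± 0.26), and HMGCS1, of cholesterol synthesis, at 53.7, 50.9 and 44.4 CPM and 102, 104 and 57.5 CPM (log2 fold change -0.82 ± 0.24). SREBF1, a transcription factor of these enzymes, was on the high side at 113, 111 and 122 CPM against 41.6, 53.4 and 108 CPM (log2 fold change 0.77 ± 0.35). The edgeR adjusted p of these 4 genes was 0.333 to 0.362.

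Genes that define the keratinocyte layers were compared next. TP63, the master regulator of the basal layer, was at 196, 254 and 343 CPM in BD and 300.2, 283 and 285 CPM in control (log2 fold change -0.13 ± 0.25, edgeR adjusted p = 0.806), and KRT14 at 162, 339.9 and 379 CPM and 321, 387 and 343 CPM (log2 fold change -0.25 ± 0.41, edgeR adjusted p = 0.771). KRT5, the partner of KRT14, was at 719.6, 509 and 521 CPM in BD, 1012 and 1241.5 CPM in controls 1 and 2 and 367 CPM in control 3 (log2 fold change -0.58 ± 0.42), so that BD lay between the controls. KRT15, a keratin of basal and follicle stem cell compartments, was split by the controls. It was at 359, 314 and 446 CPM in BD, 27.1 and 27.3 CPM in controls 1 and 2 and 442 CPM in control 3. The log2 fold change was 1.17 ± 0.87 with all controls (edgeR adjusted p = 0.520), 3.79 ± 0.28 without control 3 (edgeR adjusted p = 2.53e-05) and -0.25 ± 0.32 against control 3 alone.

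Integrins and their ligands divided. ITGB1, the integrin beta-1 chain, was at 241, 305 and 299.5 CPM in BD and 291, 283 and 284 CPM in control (log2 fold change -0.02 ± 0.20, edgeR adjusted p = 0.966). ITGA6, the alpha-6 chain used to mark keratinocyte progenitors, was at 360.0, 341 and 389.6 CPM in BD, 769 and 743 CPM in controls 1 and 2 and 322 CPM in control 3 (log2 fold change -0.75 ± 0.31, edgeR adjusted p = 0.352). The 17 genes of the basal layer and its anchors had a median of -0.13. Beside 8.05% above and 7.72% below over all genes tested, 3 of the 17 lay above every control and 0 below. These were ITGB4 (620.4, 461 and 505 CPM against 296, 343 and 389 CPM), ITGA3 (539, 586 and 623 CPM against 328, 375 and 511 CPM) and LAMB3, a chain of laminin-332 (789, 751 and 810.2 CPM against 412, 511 and 612 CPM). LAMA3, another chain of the same laminin, had the other order, at 382, 357 and 336 CPM in BD, 703 and 749.7 CPM in controls 1 and 2 and 292 CPM in control 3.

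Of 9 tested stress and simple keratins, 1 lay above and 1 below every control, beside 8.05% and 7.72% of all genes tested. Their median was 0.33. KRT19 was the one above, at 859, 1170.0 and 1085 CPM in BD and 388, 468 and 816 CPM in control (log2 fold change 0.90 ± 0.28, edgeR adjusted p = 0.333). KRT6A, a keratin of wounded and rapidly growing epidermis with close copies in the genome, was the one below, at 103, 137 and 169 CPM and 499, 630.5 and 189 CPM (log2 fold change -1.69 ± 0.46, DESeq2 adjusted p = 0.0243). KRT16, its usual partner, had the opposite order, at 6.84, 9.42 and 10.4 CPM in BD, 1.02 and 1.009 CPM in controls 1 and 2 and 8.55 CPM in control 3, and KRT17 was at 367, 782 and 957 CPM, 179.7 and 238 CPM and 794 CPM.

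Of 30 differentiation genes, only 13 had enough counts to be tested, with a median of -0.16. Of the 13, 2 lay above every control and 1 below, beside 8.05% and 7.72% of all genes tested. KRT1 had no read in any BD or control library, which allows up to 0.103 to 0.118 CPM in BD and 0.113 to 0.168 CPM in control (3 counts, counting error only). KRT10 was at 8.72, 10.2 and 6.17 CPM in BD and 7.10, 6.67 and 10.8 CPM in control (log2 fold change 0.02 ± 0.29, edgeR adjusted p = 0.970), and IVL, involucrin, at 0, 0.0785 and 0.0689 CPM and 1.07, 1.18 and 0 CPM. KLK5, a protease of the cornified layer, was at 39.7, 42.4 and 40.9 CPM in BD, 7.31 and 10.1 CPM in controls 1 and 2 and 34.2 CPM in control 3 (log2 fold change 1.24 ± 0.47), and KLK7, which works with it, had the opposite order at 4.76, 3.22 and 5.62 CPM, 12.1 and 11.4 CPM and 4.22 CPM. ELF3, an epithelial transcription factor, lay above every control at 433, 343 and 437 CPM against 31.2, 33.1 and 326 CPM.

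Of 15 tested surface markers used for epithelial progenitors, 1 lay above every control and 2 below, beside 8.05% and 7.72% of all genes tested. At an unadjusted p under 0.05, 0 were higher and 6 lower, beside 4.73% and 9.06%. The median log2 fold change was -0.35, with -0.04 against control 3 alone. CD44, a hyaluronan receptor, was at 389, 437 and 518 CPM in BD, 875 and 801 CPM in controls 1 and 2 and 453 CPM in control 3 (log2 fold change -0.66 ± 0.28), and CD24 at 94.0, 115 and 115 CPM, 293 and 281 CPM and 109 CPM (log2 fold change -1.08 ± 0.39). ALDH1A3, an enzyme of retinoic acid synthesis, was at 261, 151 and 128 CPM in BD, 454 and 489.8 CPM and 145 CPM. ABCG2, the efflux pump of side population cells, was the member above every control, at 41.2, 30.4 and 29.4 CPM against 25.9, 28.3 and 26.6 CPM (log2 fold change 0.32 ± 0.18).

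Of 15 desmosome and adherens junction genes, 2 lay above every control and 0 below, beside 8.05% and 7.72% of all genes tested. Their median was 0.03. Without control 3, 0 were called higher and 3 lower, beside 13.8% and 10.5% of all genes tested. DSP, desmoplakin, was at 370.4, 272 and 359 CPM in BD, 895 and 839.9 CPM in controls 1 and 2 and 364 CPM in control 3 (log2 fold change -1.07 ± 0.37), and JUP, plakoglobin, lay above every control at 466, 414 and 415 CPM against 272, 325 and 370.3 CPM. Of 24 tested genes of mesenchymal transition and matrix, 2 lay above every control and 0 below, with a median of 0.05, and without control 3 5 were called higher and 7 lower. CDH2, N-cadherin, was at 89.2, 68.7 and 52.2 CPM in BD and 29.2, 27.8 and 47.6 CPM in control (log2 fold change 1.00 ± 0.29, edgeR adjusted p = 0.333), and MMP14, a membrane metalloproteinase, at 151, 149 and 177 CPM and 90.0, 107 and 118 CPM (log2 fold change 0.60 ± 0.17). FN1, fibronectin, was at 903, 445 and 478 CPM in BD, 3071 and 3221 CPM in controls 1 and 2 and 361 CPM in control 3, SPARC at 1.49, 0.471 and 0.965 CPM, 29.3 and 29.4 CPM and 0.829 CPM, MMP2 at 22.4, 21.6 and 25.1 CPM, 83.8 and 90.4 CPM and 20.6 CPM, and TGFBI at 393, 448 and 452 CPM, 1151 and 1207 CPM and 322 CPM.

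Of 32 tested genes of WNT, Notch and TGF-beta signalling, 2 lay above every control and 4 below, beside 8.05% and 7.72% of all genes tested. Their median was -0.25, and 9 were lower at an unadjusted p under 0.05, beside 9.06%. DKK1, a secreted WNT inhibitor, was at 13.9, 11.6 and 9.06 CPM in BD, 69.9 and 84.8 CPM in controls 1 and 2 and 6.52 CPM in control 3 (log2 fold change -2.22 ± 0.78). WNT10A, a WNT ligand of skin appendages, had the opposite order and lay above every control, at 109.9, 109.7 and 113 CPM against 11.96, 15.8 and 103 CPM. NRARP, a Notch target, was at 3.20, 5.18 and 10.9 CPM in BD and 28.5, 34.8 and 11.8 CPM in control, below every control. BMP7 was at 0.139, 0.314 and 0.448 CPM in BD, 14.5 and 13.6 CPM and 0.226 CPM, and TGFB2 at 3.65, 1.96 and 0.965 CPM, 14.6 and 10.9 CPM and 0.791 CPM. Of 13 tested heat shock chaperones, 2 lay above every control and 1 below, with a median of -0.06. HSPE1, the mitochondrial co-chaperonin, was the one below at 48.4, 54.4 and 35.3 CPM against 109, 106 and 55.6 CPM (log2 fold change -0.97 ± 0.31). Of 18 nuclear long RNAs and snoRNA host genes, 1 lay above and 1 below, with a median of 0.03: MALAT1, a nuclear RNA, at 2704, 2657 and 3448 CPM against 1816, 1022 and 2192 CPM, and SNHG1, a snoRNA host, at 108, 72.9 and 64.7 CPM against 143, 150.4 and 126 CPM.

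The genes with the largest fold change without control 3 were present in BD and control 3 and near absent from controls 1 and 2, or the reverse. Higher in BD, besides TLR2 and LCN2, were HDX at 12.3, 10.3 and 11.5 CPM in BD and 0 reads in controls 1 and 2 (at least 70.9-fold higher), EPDR1 at 7.99, 11.5 and 9.82 CPM (at least 60.8-fold), and PDGFD, a platelet-derived growth factor, at 9.10, 12.7 and 11.6 CPM (at least 69.3-fold). Control 3 held 10.1, 7.98 and 12.9 CPM of these 3. RPS6KA6, a ribosomal S6 kinase, ARMCX1 and PRSS21 had the same order, at 6.70, 8.72 and 7.79 CPM, 5.80, 8.79 and 8.17 CPM and 5.56, 8.17 and 8.89 CPM in BD, 0 reads in controls 1 and 2, and 9.72, 7.53 and 9.04 CPM in control 3. Lower in BD, ADD2, the cytoskeletal protein beta-adducin, had 0 reads in all 3 BD libraries and in control 3, and 61.2 and 59.0 CPM in controls 1 and 2, which is at least 554-fold higher than 3 counts per BD library would give. CDH8, cadherin 8, was at 0.0347, 0.0785 and 0.414 CPM in BD, 26.1 and 23.2 CPM in controls 1 and 2 and 0.226 CPM in control 3, and GALNT14, which starts O-linked glycans, at 0.104, 0.157 and 0.310 CPM, 10.9 and 14.1 CPM and 0.151 CPM. ATP8A2, a lipid flippase, TNFRSF10D, a decoy receptor of TRAIL, ADAM12, a metalloproteinase, and CPA4, a carboxypeptidase, had at most 0.113 CPM in control 3 and 18.2 and 18.9, 10.9 and 12.8, 5.82 and 6.84, and 5.67 and 6.90 CPM in controls 1 and 2. NBD replicate 2 held 10.1 CPM of ATP8A2 and 3.76 CPM of GALNT14, above the other sorted libraries.

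DESeq2 calls not yet described included HYI, a hydroxypyruvate isomerase, at 7.36, 5.10 and 3.58 CPM in BD and 1.02, 1.07 and 2.79 CPM in control (DESeq2 adjusted p = 0.0368), APOL6 at 326, 318 and 316 CPM and 158, 147 and 240.4 CPM (DESeq2 adjusted p = 0.0387), and SOCS1, an inhibitor of cytokine signalling, at 0.729, 3.45 and 4.83 CPM and 0.204, 0.336 and 0.904 CPM (DESeq2 adjusted p = 0.0384), where BD replicate 1 was below control 3. On the low side, TUB (0.486, 0.314 and 0.620 CPM in BD, 19.3 and 19.6 CPM in controls 1 and 2 and 0.414 CPM in control 3) and NETO2 (1.84, 1.65 and 2.10 CPM, 43.2 and 44.5 CPM and 2.07 CPM) were called by DESeq2 although control 3 lay inside the BD range. PPP1R3C, a regulator of glycogen synthesis, was at 0.139, 0.236 and 0.138 CPM in BD, 5.11 and 4.26 CPM and 0.377 CPM, and CALHM2 at 0.0695, 0.157 and 0.448 CPM, 5.26 and 7.01 CPM and 0.339 CPM. The histone gene H3C3, with many near-identical relatives, was at 0.174, 0.942 and 0.172 CPM in BD, 102 and 127 CPM in controls 1 and 2 and 0.151 CPM in control 3.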

How the data were processed

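Raw read counts per Ensembl gene ID, deposited by the authors for each library, were the only values used. Per the submitters' processing notes and the labels' protocols, libraries were stranded, ribosomal RNA-depleted, paired-end total RNA, read quality was examined with FastQC 0.74, reads were trimmed with Trimmomatic 0.39, aligned to GRCh38 with STAR 2.7.11b and counted with featureCounts. Some details, not given in the sources used here, are the annotation release, the strand setting, the handling of multi-mapping reads and the RNA kit behind each library.

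Of 78899 IDs, 39344 had a count, and 16921 passed edgeR's filterByExpr. Gene symbols came from the supplied name table, gene types and transcripts from GENCODE 29, and promoter windows from RefSeq (GRCh38.p14). The comparison was tested with edgeR 4.0.16 (TMM scaling, quasi-likelihood, 1 term per group over all 9 libraries, 6 residual degrees of freedom, Benjamini-Hochberg adjustment, threshold 0.05) in R 4.3.3, after the script was tested on simulated data. Where 1 control library remains, its spread is assumed to be that of the other groups. Shares of counts were compared by exact permutation of the 6 libraries. Levels are TMM-normalised CPM, and a count of 3 corresponds to 0.103 to 0.118 CPM in BD and 0.113 to 0.168 CPM in control. Another 20 settings were run, among them DESeq2 1.42.0, limma-voom (limma 3.58.1) and the omission of each library. A total of 30 gene lists, 6 marker lists and the comparison itself were chosen with earlier results of these data known. Named genes were 12 set genes, 10 protein-coding genes per direction with the widest gap between nearest libraries (mean of at least 5 CPM in the higher group), up to 8 per direction by fold change among calls without control 3, with control 3 alone (0 called) and by DESeq2, and up to 4 per list by fold change at an unadjusted p under 0.05. Other genes were chosen after their values were seen. Python 3.11.15 and matplotlib 3.10.9 made the plots.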

Additional observations from a re-analysis of the deposited data

How the results depend on the processing

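With all libraries and the filter on low counts no gene passed edgeR's test, and this count depended on control 3. Left out one at a time, the 9 libraries gave 0 to 4317 called genes (0 to 2454 higher, 0 to 1863 lower), and the upper value of each is that without control 3. Without a filter on low counts edgeR called 1162 of 39344 genes (430 higher, 732 lower), DESeq2 called 167 (11 higher, 156 lower) and limma-voom 1, which was lower. The other settings called 0: RLE size factors, at least 1 CPM in 3 libraries, the replicate block, the 6 BD and control libraries alone, removal of mitochondrial rRNA, protein-coding genes alone, a log2 fold change of at least 1, and control 3 as the only control.

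Against control 3 alone, where 1 library stands for the control group, 44 of the genes followed across settings changed sign. Genes not followed across settings are left out of this count, and the cause was not tested. The log2 fold change became positive for ALDH1A3 0.31, BMP7 0.40, BNIP3 0.11, CCND1 0.0746, CD59 0.16, CPA4 4.86, DKK1 0.82, DUSP2 0.0121, FN1 0.74, GALNT14 0.33, H3C3 1.46, HK2 0.0549, ITGA6 0.17, KLK7 0.10, KRT5 0.66, LAMA3 0.29, LDHA 0.21, MCM6 0.25, MMP2 0.15, MT1X 1.07, NDRG1 0.11, RMRP 0.27, RRM2 0.19, SPARC 0.23, TGFA 0.0715, TGFB2 1.46, TGFBI 0.41, TUB 0.19 and TXNRD1 0.28, and negative for CDKN1A -0.0241, CXCL8 -0.50, EREG -0.0342, FOS -0.42, IL1B -0.0853, KRT10 -0.38, KRT15 -0.25, KRT17 -0.18, LCN2 -0.32, MT-CO1 -0.15, MT-CO3 -0.0385, PDGFD -0.22, PRSS21 -0.27, RPS6KA6 -0.33 and VEGFA -0.38. The CPA4 value is imprecise: its standard error was 4.98, with 9, 2 and 0 reads in BD replicates 1, 2 and 3 and 0 in control 3. In other settings the sign changed for genes near 0. Leaving out 1 library at a time gave log2 fold changes of -0.0372 to 0.13 for IL1B, -0.0800 to 0.0828 for ITGB1, -0.15 to 0.29 for KRT10, -0.47 to 0.0400 for KRT14, -0.0668 to 0.16 for SLC25A3, -0.30 to 0.60 for SNORD3B-1 and -0.35 to 0.0459 for TP63. limma-voom gave KRT10 -0.00431 and SNORD3B-1 -0.0947, and the replicate block gave SNORD3B-1 -0.0545. No fold against control 3 alone is given for ADD2, IVL and TNFRSF10D, since each BD library and control 3 held 3 reads or fewer.

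The labels do not say whether libraries that share a replicate number were paired, and this was not tested. Deviations of BD and control from their group means correlated at 0.249, 0.0399 and 0.261 for numbers 1, 2 and 3. In these deviations each BD library correlated best with the control of its own number. In the log CPM levels themselves each BD library correlated best with control 3, at 0.980, 0.985 and 0.987 for BD replicates 1, 2 and 3. With the replicate block edgeR called 0 genes, 0 higher and 0 lower. The median of the short non-coding RNA list cannot be computed over protein-coding genes alone. Levels under 0.168 CPM, 3 counts in the shallowest library, are not resolved.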

Other observations

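In 3 genes chosen here after their values were seen, control 3 lay above all of the other 5 libraries. ARGLU1, a regulator of splicing, was at 178 CPM in control 3, 74.0, 53.2 and 44.6 CPM in BD and 65.2 and 54.1 CPM in controls 1 and 2. LUC7L3, a splicing factor of the U1 complex, was at 81.4 CPM, 44.2, 26.5 and 25.7 CPM and 64.5 and 46.6 CPM, and ZNF692 at 24.9 CPM, 12.5, 10.8 and 11.3 CPM and 11.8 and 12.6 CPM, in the same order of groups. Calcium-binding S100A8 and S100A9, which form an antimicrobial pair in inflamed epidermis, were at 0.521, 1.49 and 4.55 CPM and 3.27, 9.15 and 14.6 CPM in BD, 0.102 and 0.224 CPM and 0.613 and 0.841 CPM in controls 1 and 2, and 6.03 and 26.8 CPM in control 3. Also by value, CDH5, the cadherin of endothelial junctions, was at 14.6, 11.8 and 18.8 CPM in BD, 1.07 and 0.785 CPM in controls 1 and 2 and 16.6 CPM in control 3, while VWF, another endothelial gene, was at 0.417, 0.118 and 0.0689 CPM, 1.53 and 1.07 CPM and 0.0753 CPM. The part of other cell types in these levels was not tested.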
